A study of Triticum aestivum with 24 samples.

Results

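Among 61115 probe sets of a wheat microarray, 150 were chosen because their signal in the flag leaf was higher under drought than under irrigation in both drought-tolerant plant materials and not in either susceptible one. Each probe set reads 1 transcript or a few alike transcripts, and its signal is an intensity on a linear scale. The choice was made from measured values. The level of a probe set was taken as log2(signal + 16), a group's level as the median of its 3 arrays, and the drought change of a plant material as its drought level minus its irrigated level. Probe sets with a change below 0.5 in both susceptible materials numbered 37294. These were ordered by the smaller of their changes in the tolerant materials, called the score here, and the 150 with the highest score were kept. The changes and everything computed from the same differences are therefore a description of how the set was made and are given without a test.

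The plants were bread wheat, Triticum aestivum, sampled as flag leaves at the reproductive stage. There were 4 materials. WL711 is a cultivar described as drought susceptible, C306 one described as drought tolerant, and both are parents of a population of recombinant inbred lines, which are lines made homozygous by repeated selfing after a cross. The susceptible bulk and the tolerant bulk are each a pool of 10 such lines, so a bulk value is an average over lines and says nothing about any single line. Each material was grown irrigated and under drought, which gives 8 groups of 3 arrays and 24 arrays in all. The study design calls the 3 arrays of a group biological replications, without saying which plants went into each. The spread behind every p-value is therefore that between arrays, with 1 cultivar or 1 pool on each side of a comparison. The sources used here do not give the length or severity of the drought.

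Below the ear of wheat, the uppermost or flag leaf supplies much of the sugar for the filling grain. Leaf cells that lose water raise the hormone abscisic acid, close their stomata and switch on genes for protective proteins such as late embryogenesis abundant (LEA) proteins and dehydrins. Lines of a cross that differ in tolerance are often pooled by phenotype so that transcripts which follow the trait, and not the rest of the genome, can be looked for in both parents and pools.

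Of the 150 members, 4 carry a gene symbol in the platform annotation used here, and the other 146 are given by their probe set identifiers, with no gene name or role attached. The results below can therefore describe how these transcripts behaved, and for 1 gene what kind of enzyme its name stands for. No sequence of the probe sets or genes was used here. Differences between probe sets in signal also reflect the probes, so dim and bright describe signal only and are not read as differences in transcript abundance.

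Genes of photosynthesis were bright on all arrays. The large Rubisco subunit gene rbcl had a median signal of 64456, the photosystem II genes PsbO and PsbP 36512 and 36929, and the Calvin cycle gene PRK 41360. Their lowest signals on any array were 41087, 15425, 17931 and 25696. FBP was dimmer, with a median of 6759 and a lowest signal of 3849. Genes looked up as markers of dividing cells had medians of 2053 (tubb1), 744 (wcH2B-6) and 52.3 (H2A-2). On C306 drought arrays 1 and 3 the hybridisation spike-ins were bright, and the mean level of these controls in that group ran from 12.67 to 14.12, against 11.63 to 12.72 on the arrays of the other 7 groups. WL711 drought array 1 lay far from the other WL711 drought arrays in several members described below. The parental differences tested in named members are given with and without C306 drought arrays 1 and 3. So are the C306 changes that moved by more than 1 SD without them, among the 6 highest scores and the 4 members with a gene symbol. The part of these arrays in the results was not tested beyond that. Markers of grain tissue were not analysed here. In leaf RNA, fewer cells of a type and less RNA per cell cannot be told apart.

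The members were dim. Of the 150, 93 (62%) had an overall mean at or below the limit that leaves out the lowest 40% of probe sets, a signal of 39.1, and 57 lay above it. In irrigated C306 their median level was 4.86, a median signal of 13.0, and under drought it was 6.53, a signal of 76.5. The tolerant bulk had a median level of 4.74 when irrigated and 6.30 under drought. In WL711 it was 5.66 when irrigated and 5.24 under drought, and in the susceptible bulk 5.66 and 5.31. The irrigated tolerant leaves thus held the lowest levels of the set and the droughted tolerant leaves the highest. The median over all probe sets lay between 6.25 and 6.60 in the 8 groups.

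The starting point in the tolerant materials was near the bottom of the scale. In irrigated C306, 143 of the 150 members stood below the median of all probe sets, and 98 stood below the lower quartile. In the irrigated tolerant bulk these counts were 146 and 124. Under drought, 69 members in C306 and 58 in the tolerant bulk stood above the median of all probe sets. The set also had a few bright members, with 11 that passed a level of 8 in at least 1 group and 2 that passed 10.

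**Figure D1:**
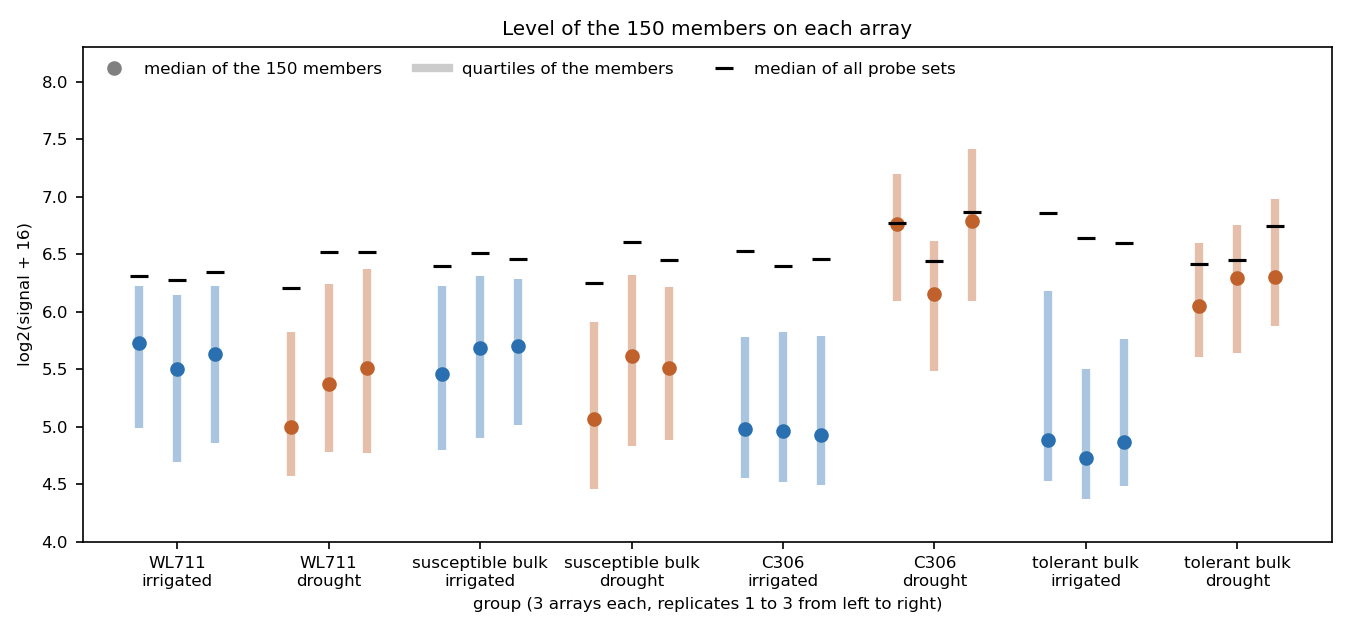
Level of the 150 members on each of the 24 arrays, as log2(signal + 16), with the median as a point, the range from the lower to the upper quartile as a bar, and the median of all 61115 probe sets as a black dash. The members' median runs from 4.73 to 4.98 on the 6 irrigated tolerant arrays and from 6.05 to 6.79 on the 6 droughted tolerant ones, and none of the 12 susceptible arrays lies above 5.72.

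The scores ran from 1.18 to 2.21 with a median of 1.34. One member scored above 2 and 38 above 1.5. The score was set by the tolerant bulk in 93 members and by C306 in 57. The last member kept, Ta.15562.1.S1_at, scored 1.1798 and the first one left out, TaAffx.30389.1.S1_at, scored 1.1797, so nothing separates the set from the probe sets just outside it. The neighbours on either side were Ta.17728.1.S1_at at 1.1839 and Ta.1619.1.S1_x_at at 1.1786.

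Across the members the drought change in C306 had a median of 1.53 and ran from 1.18 to 2.76, and in the tolerant bulk it had a median of 1.45 and ran from 1.18 to 2.29. In WL711 the median was -0.08 and in the susceptible bulk -0.18. Over all probe sets the medians were 0.10 in C306, -0.08 in the tolerant bulk, 0.08 in WL711 and -0.03 in the susceptible bulk. The limit of the choice was one-sided, and it let in probe sets that were lower under drought in the susceptible materials. A change below -0.5 was found for 38 members in WL711, for 45 in the susceptible bulk and for 11 in both. The other 78 members stayed within 0.5 of their irrigated level in both susceptible materials.

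A like set chosen with the materials exchanged, high under drought in WL711 and the susceptible bulk only, had scores of nearly the same size. Its highest score was 2.58, its median 1.35 and its lowest 1.19, out of 35409 probe sets that met the limit. Of its 150 members, 99 lay above the filter on low signals, against 57 of the members described here.

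The members reached their pattern by different routes. In the parents, 61 members stood within 0.5 of WL711 when irrigated and more than 0.5 above it under drought. A further 57 started more than 0.5 below WL711 and ended more than 0.5 above it. Another 19 started below and only drew level under drought. In the bulks the order was different, with 62 that started below the susceptible bulk and ended above it, 41 that started below and drew level, and 40 that started level and ended above. The median difference of C306 from WL711 was -0.56 when irrigated and 1.34 under drought. That of the tolerant from the susceptible bulk was -0.81 when irrigated and 1.00 under drought. The same route in both pairs was taken by 20 members that started level and ended above, 21 that crossed from below to above, and 6 that drew level. Over all 61115 probe sets, 8466 started level and ended above in the parents, 2832 crossed from below to above and 5621 drew level from below. In the bulks these counts over all probe sets were 6538, 1816 and 6916. The counts of members follow from the changes used in the choice and are a description.

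**Figure D2:**
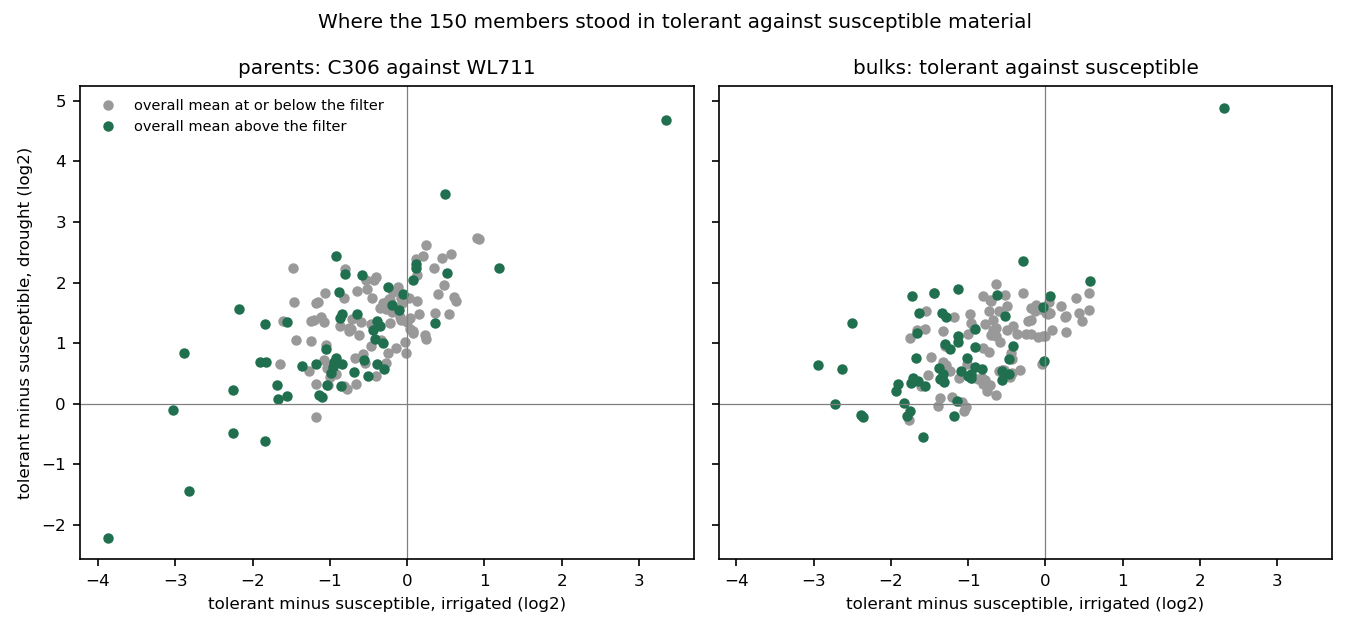
Difference of the tolerant from the susceptible material in log2(signal + 16), irrigated on the horizontal and under drought on the vertical axis, for parents (left) and bulks (right), with 1 point per member and green for the 57 above the filter on low signals. Most points lie above 0 under drought, 127 of 150 by more than 0.5 in the parents and 106 in the bulks, and 79 and 104 lie more than 0.5 below 0 when irrigated. Of all 61115 probe sets, 16846 and 13705 lie more than 0.5 above 0 under drought, and 11828 and 12585 more than 0.5 below 0 when irrigated.

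Within a group the 3 arrays often disagreed about a member. The median over members of the standard deviation of 3 arrays lay between 0.51 and 0.86 in the 8 groups, against 0.28 to 0.49 over all probe sets and 0.44 to 0.72 over those at or below the filter. For pairs of arrays within a group, the correlation across the 150 members had a median of 0.50 over 24 pairs and a range of 0.03 to 0.73. Over all probe sets it ran from 0.91 to 0.97. The points of each correlation are probe sets read on the same 2 arrays and are not independent.

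All 3 drought arrays stood above all 3 irrigated arrays for 50 members in C306 and for 35 in the tolerant bulk. Over all probe sets the shares were 15.6% in C306 and 11.2% in the tolerant bulk. Both materials showed this separation for 18 members, against 3.94% of all probe sets, and 11 of the 18 lay above the filter. For 83 members the drought and irrigated arrays overlapped in both tolerant materials. The choice used the same arrays, and nothing is read from these counts.

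To see the same measure in arrays that had no part in the choice, 150 probe sets were chosen by the same rule, with the mean of 2 arrays as each group's level, and their change was read in the replicate left out. With replicate 1 left out, the median change in the 2 replicates used was 1.43 in C306 and 1.28 in the tolerant bulk. In replicate 1 itself it was 0.50 in C306 and -0.34 in the tolerant bulk. The change in C306 was smaller there, and the tolerant bulk showed no higher drought level.

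With replicate 2 left out, the medians in the left-out arrays were 0.44 in C306, 0.26 in the tolerant bulk and 0.62 in WL711. In that replicate the susceptible parent had the largest median of the 4 materials. With replicate 3 left out they were 0.92 in C306 and 0.35 in the tolerant bulk, against 0.26 in WL711 and 0.17 in the susceptible bulk. C306 kept a median above that of all probe sets in each of the 3 left-out replicates, and the tolerant bulk did so in replicates 2 and 3 only.

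The full pattern, above 0.5 in both tolerant and below 0.5 in both susceptible materials, was seen in the left-out replicate for 15 of 150 probe sets with replicate 1 left out, where 4.09% of all probe sets showed it. With replicate 2 left out it was 9 of 150 against 2.03%, and with replicate 3 left out 17 of 150 against 4.21%. A change above 0.5 in both tolerant materials alone was found for 20, 39 and 50 of the 150, against 9.29%, 7.96% and 13.9% of all probe sets. In each of these 3 readings the share among chosen probe sets, 10.0%, 6.0% and 11.3% for the full pattern, was above that of all probe sets. Most chosen probe sets did not show the pattern again. Shares for probe sets of like signal or spread were not computed, so the higher shares are not read as a repeat of the pattern.

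**Figure D3:**
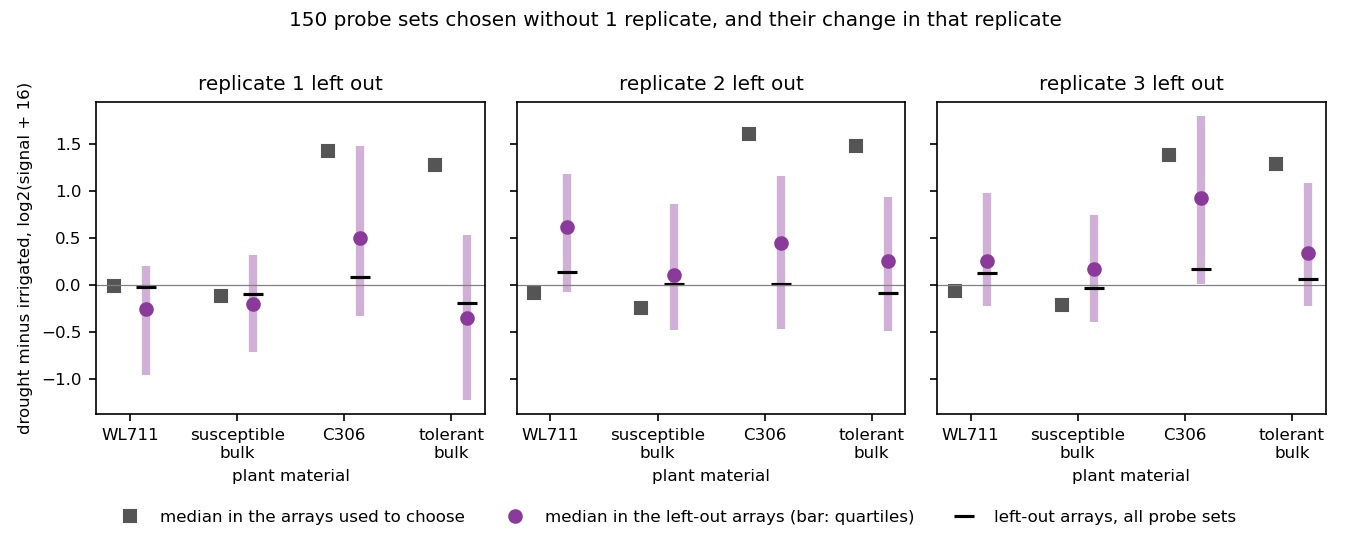
Drought minus irrigated in log2(signal + 16) for 150 probe sets chosen without 1 replicate, in each of the 4 materials, with grey squares for the median in the arrays used, purple points for the median in the left-out arrays, bars for the lower to upper quartile there and black dashes for the median of all probe sets in the left-out arrays. In C306 the median falls from 1.43, 1.61 and 1.38 to 0.50, 0.44 and 0.92, and in the tolerant bulk from 1.28, 1.48 and 1.29 to -0.34, 0.26 and 0.35.

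The choice itself moved with the arrays. The 3 sets chosen on 2 replicates shared 30, 26 and 35 probe sets with the 150 members. Of the members, 86 were in none of the 3, 41 were in 1, 19 in 2 and 4 in all 3. Those 4 were Ta.25974.1.A1_at, TaAffx.66712.2.A1_at, TaAffx.8847.1.S1_at and Ta.5458.1.S1_x_at. They were singled out after their values were seen.

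Ta.25974.1.A1_at had the highest score of all, 2.21. In C306 its signals were 11.6, 8.3 and 2.5 when irrigated and 119.9, 63.6 and 173.9 under drought. The tolerant bulk read 14.6, 7.4 and 19.6 when irrigated and 147.3, 101.8 and 125.6 under drought. The drought arrays stood above the irrigated arrays without overlap in both materials, with changes in level of 2.48 and 2.21. Without C306 drought arrays 1 and 3 the change in C306 was 1.71. In WL711 the signals were 93.7, 99.5 and 121.1 when irrigated and 4.3, 99.7 and 146.8 under drought, and in the susceptible bulk 73.4, 135.5 and 82.0 when irrigated and 68.3, 27.2 and 72.4 under drought. The irrigated susceptible arrays thus lay within the range of the droughted tolerant ones, and the irrigated tolerant arrays were low. WL711 drought array 1, at 4.3, was the one array outside those 2 groups as low as they were.

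TaAffx.66712.2.A1_at was the brightest member. Its signals in C306 were 1594, 905 and 1334 when irrigated and 4914, 6583 and 4056 under drought. Those of the tolerant bulk were 734, 637 and 535 when irrigated and 1679, 1857 and 2040 under drought. Both materials had drought arrays above all irrigated arrays, with changes of 1.87 and 1.52. In WL711 the irrigated arrays read 7244, 6409 and 5878 and the drought arrays 1020, 6874 and 7042, so 1 drought array was far below the others. In the susceptible bulk the signals were lower on all 3 drought arrays, 1783, 1967 and 1857, than on the irrigated arrays, 4280, 4876 and 4113, a change of -1.20. A second probe set with the same identifier stem, TaAffx.66712.1.S1_at, did not share the pattern and had changes of -1.26 in C306 and 0.06 in the tolerant bulk.

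TaAffx.8847.1.S1_at, with the next highest score of 1.97, was dim and its arrays overlapped. Its tolerant bulk signals were 97.4, 10.9 and 83.9 under drought and 8.1, 11.5 and 5.0 when irrigated. Its C306 signals were 73.9, 109.5 and 180.3 under drought and 16.1, 8.0 and 80.5 when irrigated. One array in each material thus crossed the order of the medians. Ta.5458.1.S1_x_at, with a score of 1.59, had separate arrays in both tolerant materials at low signals. In C306 they were 1.4, 1.6 and 11.8 when irrigated and 73.7, 26.5 and 87.9 under drought. Its tolerant bulk arrays read 4.4, 3.6 and 5.5 when irrigated and 45.5, 27.7 and 50.5 under drought. The change in the susceptible bulk was 0.46, just under the limit of 0.5. Other probe sets with its stem did not share the pattern. Ta.5458.2.S1_x_at changed by 0.40 in C306, 1.21 in the tolerant bulk and 0.87 in WL711. Ta.5458.3.S1_at changed by 0.41, -1.18 and 0.25 there.

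The remaining 4 of the 6 highest scores showed how far a single array could stray. TaAffx.59324.1.S1_at, scoring 1.96, had irrigated C306 signals of 73.5, 7.7 and 10.3 and droughted ones of 69.9, 117.9 and 151.7. TaAffx.23691.1.S1_at, scoring 1.89, read 540.5, 44.8 and 45.0 in irrigated C306 against 209.7, 388.8 and 195.6 under drought. In both of them the first irrigated C306 array lay among the drought arrays or above them all. For TaAffx.23691.1.S1_at the C306 change of 1.89 fell to 0.29 without the second irrigated C306 array, and to 0.30 without the third. Ta.20894.1.A1_at, scoring 1.86, had separate arrays in C306, with 18.9, 7.1 and 4.9 when irrigated and 101.4, 78.6 and 187.5 under drought. In the tolerant bulk 1 irrigated array at 36.3 passed the lowest drought array at 31.5. TaAffx.106061.1.S1_at, scoring 1.81, read 22.5, 59.9 and 22.5 in irrigated C306 and 223.2, 133.1 and 47.3 under drought, and these groups overlapped too.

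One of the 4 members with a gene symbol has a name that tells its kind. LOC543318, probe set Ta.3.1.S1_at, lists the synonyms amy1 and BMY1, which are names used for amylases, the enzymes that cut starch into sugars. Its signals in C306 were 5.7, 8.5 and 65.2 when irrigated and 103.1, 10.8 and 52.0 under drought. In the tolerant bulk they were 7.9, 34.3 and 13.5 when irrigated and 38.3, 57.3 and 77.5 under drought. The arrays were separate in the tolerant bulk and overlapped in C306, and the changes in median level were 1.31 and 1.47. Leaving out the first irrigated C306 array lowered the C306 change to 0.61, the second lowered it to 0.70, and without C306 drought arrays 1 and 3 it was 0.13. In the susceptible bulk the change was -1.30 with overlapping arrays, and in WL711 it was -0.48. The mean of LOC543318 over all arrays lay below the filter on low signals, so it was not tested between materials.

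LOC100049023, probe set Ta.4678.2.S1_at, was the only one of the 4 above the filter and the only one with separate arrays in both tolerant materials. Its C306 signals were 69.0, 46.8 and 86.3 when irrigated and 190.7, 182.2 and 372.6 under drought. Tolerant bulk arrays read 65.6, 15.5 and 134.4 when irrigated and 206.4, 286.2 and 149.9 under drought. The changes in level were 1.28 and 1.45, and those in WL711 and the susceptible bulk were 0.33 and 0.48, the second just under the limit of 0.5. The 3 other probe sets with the stem Ta.4678 did not keep to the tolerant materials. Their changes ran from 0.83 to 1.41 in WL711 and from 1.32 to 1.49 in C306, and in the pools from 0.71 to 2.14 (susceptible) and from 0.44 to 0.67 (tolerant).

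LOC543252, probe set Ta.28613.1.S1_at, read 8.9, 5.0 and 26.1 in irrigated C306 and 116.5, 5.4 and 71.6 under drought. Its tolerant bulk arrays read 142.3, 4.4 and 3.1 when irrigated, so the highest of all 24 signals was an irrigated one, and 51.3, 7.8 and 62.5 under drought. Without C306 drought arrays 1 and 3 its C306 change was -0.22 in place of 1.81. Its tolerant bulk change of 1.72 was 0.29 without the second and 0.24 without the third irrigated array. LOC543484, probe set Ta.24114.3.S1_at, read 4.4, 1.9 and 20.7 in irrigated C306 and 12.3, 82.4 and 173.5 under drought. Its tolerant bulk arrays were separate, with 9.4, 4.9 and 3.9 when irrigated and 48.8, 50.6 and 22.9 under drought. The 3 other probe sets annotated to LOC543484 had changes from -0.73 to 0.19 in C306 and from -1.61 to 0.37 in the tolerant bulk, so the member was alone among them.

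**Figure D4:**
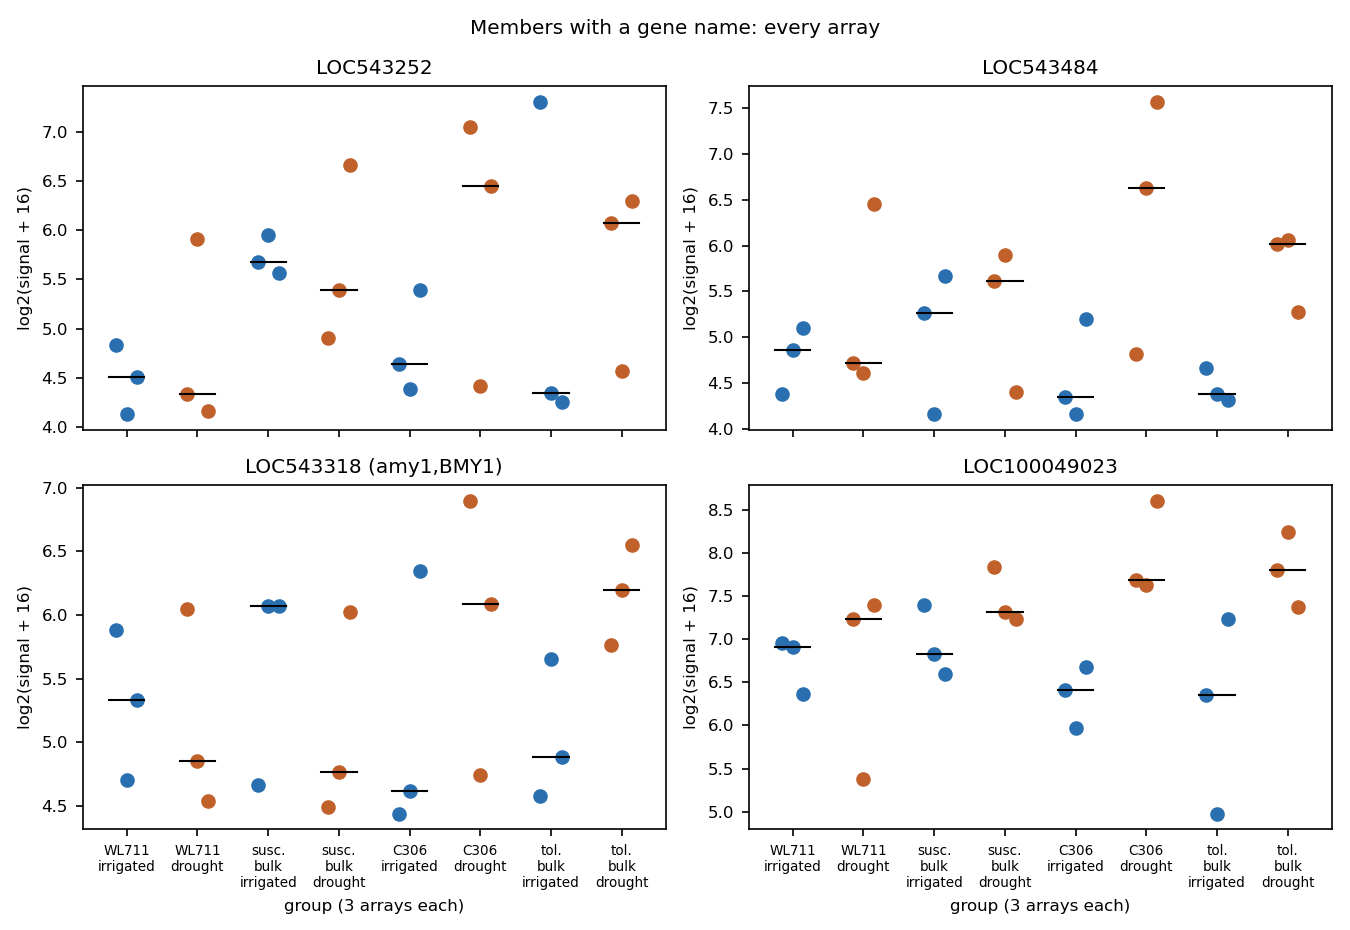
Level of the 4 members with a gene symbol, as log2(signal + 16), on every array of the 8 groups, with 1 point per array, irrigated in blue, drought in orange, and a line at the median of 3. The C306 and tolerant bulk drought medians stand above the irrigated ones in each panel, by 1.28 to 2.27 in C306 and 1.31 to 1.72 in the tolerant bulk, and LOC100049023 alone shows no overlap of drought and irrigated points in either of them.

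The difference between materials averaged over both water regimes was not itself used to choose the members. An average and a difference are unrelated only where drought and irrigated arrays spread alike. The members' median SD was 0.86 under drought and 0.59 when irrigated in C306, and 0.72 and 0.52 in WL711. The averaged difference is therefore not wholly free of the choice. This averaged difference was tested with limma over the 36669 probe sets above the filter, which took in 57 members. C306 differed from WL711 in 9 of them, where 22.1% of all tested probe sets differed. It was higher in 3, against 9.91%, and lower in 6, against 12.2%. The bulks differed in 4, against 17.6%, with the tolerant one higher in 2, against 8.56%, and lower in 2, against 9.08%. The tolerant bulk differed from C306 in 9, against 47.2%, and the susceptible bulk from WL711 in 6, against 13.4%. In each of the 4 comparisons the share among the 57 was below that of all tested probe sets, at 15.8%, 7.02%, 15.8% and 10.5%. Most of the 57 lay below the median of the tested probe sets in both bulks. Shares for probe sets of like signal or spread were not computed. These shares and the joint ones that follow are therefore not read as a trait of the members. Members called in at least 1 of the 4 comparisons numbered 14 (24.6%), against 57.0% of all tested probe sets. Called in parents and bulks in one direction were 3 (5.26%), against 1.47%.

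TaAffx.42782.1.A1_at had a higher signal in the tolerant than in the susceptible materials in both regimes. No sequence of its probes was used, so the gap is one of signal and is not read as transcript abundance. The C306 signals of this probe set were 957, 790 and 789 when irrigated and 2149, 1583 and 2052 under drought. In the tolerant bulk they were 430, 221 and 264 when irrigated and 921, 657 and 543 under drought. All 6 WL711 arrays read between 47.6 and 85.9, and the susceptible bulk arrays 50.6, 18.6 and 40.7 when irrigated and 4.6, 71.3 and 6.7 under drought, so that no susceptible array came near a tolerant one. Averaged over regimes, C306 exceeded WL711 by 3.99 ± 0.28 (log2, SE; adjusted p = 5.79e-11, limma, 6 arrays on each side), and by 3.91 without C306 drought arrays 1 and 3 (adjusted p = 5.17e-08). The tolerant bulk exceeded the susceptible one by 3.53 ± 0.28 (adjusted p = 1.58e-08). The tolerant bulk stood between the parents, with a difference from C306 of -1.50 ± 0.28 (adjusted p = 9.68e-05). The susceptible bulk differed from WL711 by -1.04 ± 0.28 (adjusted p = 0.0129), at signals where both were dim.

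TaAffx.66712.2.A1_at and Ta.17978.1.S1_at went the other way and were lower in tolerant material on average. These averages rest mainly on the low irrigated levels in tolerant material, which entered the choice. Under drought TaAffx.66712.2.A1_at had median signals of 4914 in C306 and 6874 in WL711, and of 1856.5 and 1857.2 in the tolerant and susceptible bulk. Ta.17978.1.S1_at was then higher in tolerant material, at 245.1 against 130.3 in the parents and 163.6 against 105.4 in the bulks. For TaAffx.66712.2.A1_at the difference of C306 from WL711 was -0.97 ± 0.28 (adjusted p = 0.0158) and that of the bulks -1.34 ± 0.28 (adjusted p = 0.00182). Without C306 drought arrays 1 and 3 the parental difference was -0.74 (adjusted p = 0.209). Without WL711 drought array 2 it was -0.76 (adjusted p = 0.0526), and without WL711 drought array 1, the low one, -1.41 (adjusted p = 2.45e-08). The difference of the bulks passed under all alternatives run. That of the susceptible bulk from WL711, at -0.88 ± 0.28 (adjusted p = 0.0413), was lost under many. Among these were quantile normalization (adjusted p = 0.106), no centring (adjusted p = 0.0986) and no filter on low signals (adjusted p = 0.0637). Leaving out any single array of the susceptible bulk lost it too. Without WL711 drought array 1 the difference of the susceptible bulk from WL711 was -1.31 (adjusted p = 1.66e-07).

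Ta.17978.1.S1_at had WL711 signals of 365.9, 463.0 and 504.4 when irrigated and 149.1, 130.3 and 105.5 under drought, and susceptible bulk signals of 314.4, 497.5 and 408.6 when irrigated and 137.7, 105.4 and 96.1 under drought. In C306 they were 1.9, 60.0 and 48.8 when irrigated and 164.4, 259.6 and 245.1 under drought. The tolerant bulk read 52.7, 105.3 and 43.7 when irrigated and 107.1, 163.6 and 190.6 under drought. Each of the 4 materials had separate groups, lower under drought in the susceptible and higher in the tolerant ones, with changes of -1.71 in WL711 and -1.81 in its bulk counterpart, and of 2.01 in C306 and 1.39 in the tolerant pool. The average over regimes differed between the parents by -1.34 ± 0.30 (adjusted p = 0.00214), or -1.18 without C306 drought arrays 1 and 3 (adjusted p = 0.0454), and between the bulks by -0.96 ± 0.30 (adjusted p = 0.0286). The difference of the bulks was lost when any of 6 single bulk arrays was left out, at adjusted p from 0.0572 to 0.0733, and with a pseudocount of 1 (adjusted p = 0.153).

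**Figure D5:**
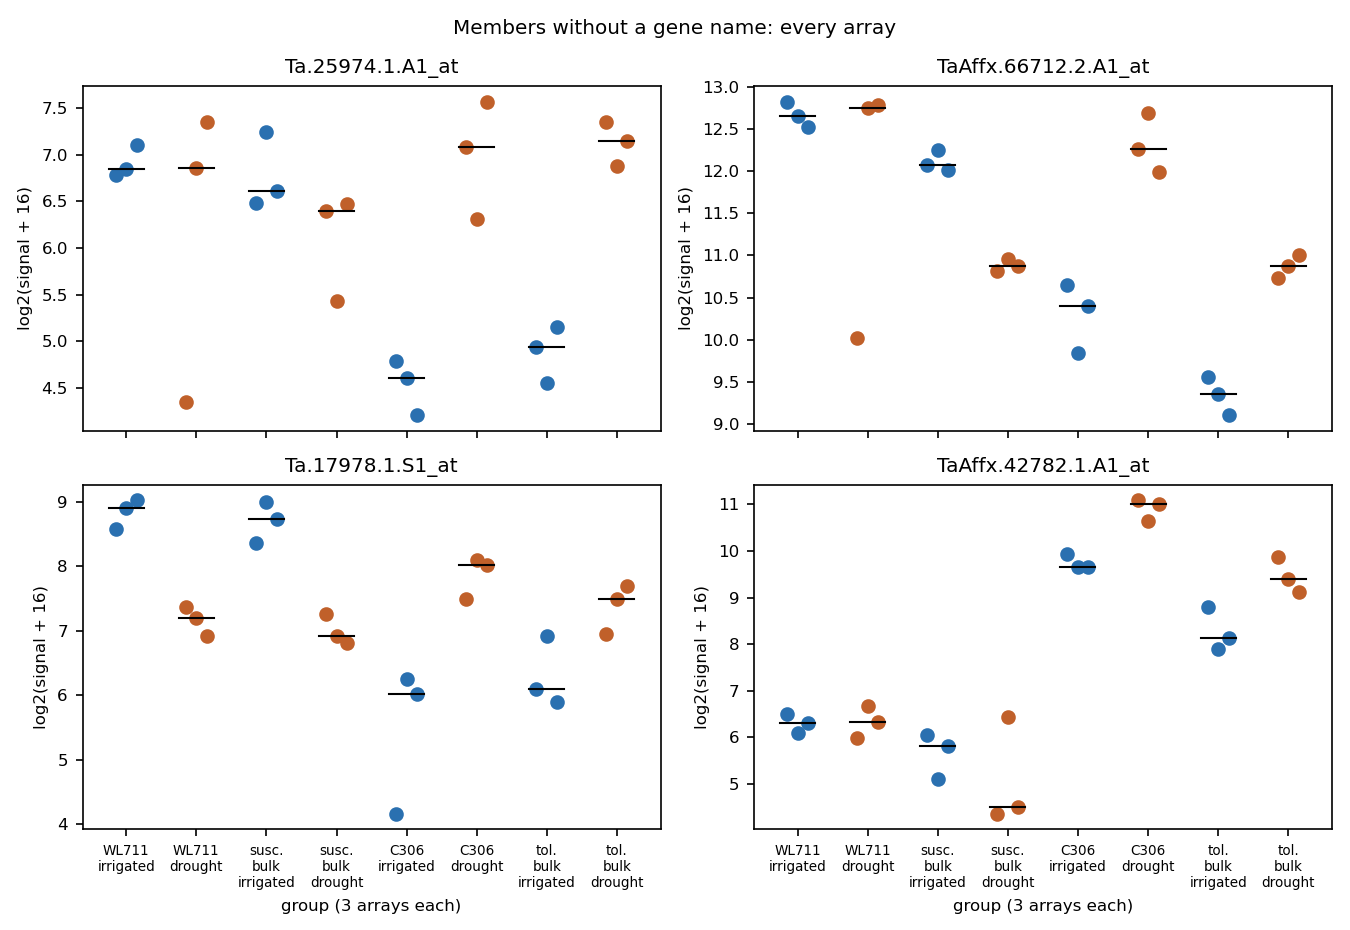
Level of 4 members without a gene name, as log2(signal + 16), on every array of the 8 groups, with 1 point per array, irrigated in blue, drought in orange, and a line at the median of 3. All tolerant arrays of TaAffx.42782.1.A1_at lie above all susceptible ones, and in the other 3 panels the lowest medians are those of the irrigated tolerant groups.

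For 4 of the 57 members the bulk difference was not the same as the parental one, against 27.4% of all tested probe sets. These were Ta.13730.1.A1_at, Ta.10338.1.S1_at, Ta.24775.1.S1_at and Ta.4915.1.A1_at, the last named because it completes the count. Ta.13730.1.A1_at had WL711 signals from 315.4 to 688.9 over both regimes and C306 signals from 9.5 to 119.3, without overlap. The parental difference was -3.18 ± 0.30 (adjusted p = 2.02e-08). The susceptible bulk was lower than WL711 by a difference of -1.90 ± 0.30 (adjusted p = 9.89e-05), and the tolerant bulk was higher than C306 by 1.31 ± 0.30 (adjusted p = 0.000965), so both pools lay between the parents. Within the tolerant bulk the arrays were separate, with 81.1, 69.5 and 28.1 when irrigated and 207.5, 237.1 and 404.5 under drought.

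Ta.10338.1.S1_at was likewise higher in WL711, with signals from 109.5 to 144.8 on its 6 arrays against 3.9 to 52.2 in C306, and the difference was -2.14 ± 0.36 (adjusted p = 0.000103). Its mean level of 5.91 lay just above the filter at 5.78, and without the WL711 arrays it would have lain below. The probe set was thus tested only because it is high in WL711, and its p-values are not independent of that. Ta.24775.1.S1_at was higher in C306, where its signals ran from 41.7 to 392.9, than in WL711, where they ran from 8.0 to 41.6, and the difference was 2.15 ± 0.39 (adjusted p = 0.00023). Its companion probe set Ta.24775.1.S1_s_at had changes of 1.16 in C306 and 1.11 in the tolerant bulk, but also 0.75 in WL711. For Ta.25693.1.A1_at the tolerant bulk exceeded the susceptible one by 1.31 ± 0.38 (adjusted p = 0.0193). That call was lost with no filter on low signals (adjusted p = 0.0603), without the third irrigated susceptible bulk array (adjusted p = 0.0739) and without the second irrigated tolerant bulk array (adjusted p = 0.0669). With C306 drought arrays 1 and 3 left out, the parental difference was -2.88 for Ta.13730.1.A1_at (adjusted p = 5.33e-07), -2.08 for Ta.10338.1.S1_at (adjusted p = 0.00276) and 2.43 for Ta.24775.1.S1_at (adjusted p = 0.00103).

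The arrays that stood apart bore on the members. On C306 drought array 2 alone, the C306 drought array with the lowest spike-in level, the median change of the members was 1.27, against -0.02 for all probe sets, and 37 members fell below 0.5. Without WL711 drought array 1 the members' median change in WL711 was 0.03, against 0.16 for all probe sets. In that case 26 members reached 0.5 or more in WL711 and would no longer have met the rule. After quantile normalization of the arrays 142 of the 150 members had changes above 0.5 in both tolerant and below 0.5 in both susceptible materials. After centring on the tested probe sets 132 did. These counts come from the arrays that chose the members, with changes of at least 1.18 in both tolerant materials. They were therefore largely set by the choice and are a description.

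The rule did not use the form of the identifiers. Plain identifiers ending in _at made up 90.7% of members, against 79.2% of all probe sets and 88.8% of those at or below the filter. Identifiers ending in _x_at, which mark probes that can bind other transcripts, made up 6.67% of members against 11.1% of all and 7.22% of those at or below the filter. Identifiers with the prefix TaAffx made up 57.3% against 48.6% of all and 64.5% of the dim ones. No pair of members shared an identifier stem.

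For 45 members the array held other probe sets with the same stem, 119 in all. Their median changes were 0.36 in C306, -0.15 in the tolerant bulk, 0.17 in WL711 and -0.17 in the susceptible bulk. Of the 119, 7 (5.88%) showed the pattern of changes above 0.5 in both tolerant and below 0.5 in both susceptible materials, which 2.39% of all probe sets showed. Most probe sets with a member's stem therefore did not behave like the member, whether or not they read the same transcript.

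None of the 5 lists of drought and leaf genes that were looked up held a member. The lists were matched by gene name, so only the 4 members with a gene symbol could have been found. The list of starch and fructan genes named no amylase. The absence therefore says nothing about the 146 members without a symbol. The lists covered LEA and dehydrin genes, starch and fructan genes, photosynthesis, redox and defence, and the methyl cycle with phenylpropanoid synthesis. Between 3 and 6 genes of each could be tested. Where a listed gene had several tested probe sets, such as Rab15, 6-FEH, GSTZ1 and LTP3, the one with the highest mean level stands for it. Values of the others are not given here. LEA1, a late embryogenesis abundant protein gene, rose under drought in WL711 by 2.44 ± 0.70 (adjusted p = 0.0156), in the susceptible bulk by 5.69 ± 0.70 (adjusted p = 1.31e-06) and in the tolerant bulk by 5.59 ± 0.70 (adjusted p = 4.91e-06). Its change in C306 was 1.37 ± 0.70 (adjusted p = 0.17). The dehydrin gene Rab15 rose in the same 3 materials, by 1.51 ± 0.46, 3.85 ± 0.46 and 2.27 ± 0.46 (adjusted p = 0.0234, 1.07e-06 and 0.00128), with 0.88 ± 0.46 in C306 (adjusted p = 0.189). The drought change of the dehydrin gene COR410 was 0.94 ± 0.42 in WL711 (adjusted p = 0.115), -0.27 in the susceptible bulk (adjusted p = 0.703), -0.34 in C306 (adjusted p = 0.613) and -0.75 in the tolerant bulk (adjusted p = 0.225), none of which passed. LEA1 and Rab15, which rose in both susceptible materials, did not have the members' pattern.

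Drought changes of the listed genes were compared with their sign kept, so a higher change can be a weaker fall. In the parents the change passed as higher in C306 for 1 of 3 starch and fructan genes and 1 of 5 redox and defence genes. The same held for 1 of 3 methyl cycle and phenylpropanoid genes, and for 3.09% of all tested probe sets. The change passed as lower in C306, against 4.66%, for 1 redox and defence gene, the glutathione transferase gene GSTZ1, at -1.27 ± 0.29 (adjusted p = 0.00586). Its changes were 0.76 in WL711 and -0.515 in C306. In the bulks, where 2.62% of tested probe sets passed in either direction, the thaumatin-like gene PR5 was the one gene of the lists that passed, at -2.11 ± 0.53 (adjusted p = 0.0294). Its changes were -3.22 in the tolerant and -1.11 in the susceptible bulk, a fall in both. For COMT1, a methyltransferase gene of lignin synthesis, the difference of response was 2.75 ± 0.22 in the parents (adjusted p = 3.92e-09) and -0.33 ± 0.22 in the bulks (adjusted p = 0.505). For the fructan exohydrolase gene 6-FEH it was 1.44 ± 0.36 (adjusted p = 0.0127) and 0.03 ± 0.36 (adjusted p = 0.983). For the lipid transfer protein gene LTP3 it was 2.76 ± 0.40 (adjusted p = 6.16e-05) and -0.62 ± 0.40 (adjusted p = 0.496). The LTP3 change was a fall of -1.98 in WL711 (adjusted p = 6.25e-05), and in C306 it was 0.78 and did not pass (adjusted p = 0.054). Whether parents and bulks differed in these responses was not tested.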

How the data were processed

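RNA of 24 flag leaf samples was hybridised to Affymetrix wheat arrays. The authors deposited 1 table of linear intensity values, 1 per probe set and array, and the submitters' processing notes name GCOS 1.2. Each array had a mean near 500.1 after trimming 2% at each end. Detection calls were not used here. Precision is limited by how few arrays a group has. Of 61290 probe sets, 175 controls (111 AFFX and 64 RPTR) were left out.

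Changes used log2(signal + 16), which understates the change of dim probe sets. For tests, arrays were centred on the median of the tested probe sets and the 40% with the lowest mean (at or below a signal of 39.1) were left out. limma 3.58.1 in R 4.3.3 fitted 8 group means with an intensity trend (16 residual, 8.32 prior degrees of freedom), two-sided, with Benjamini-Hochberg adjustment over 36669 probe sets at 0.05. The procedure was tested on simulated data. Arrays with the same replicate number did not deviate together (median correlation -0.005, -0.009 and 0.006 for numbers 1, 2 and 3), so numbers were not treated as pairs.

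Named were the members with a gene symbol, the 6 highest scores, those at the limit, and the 2 highest and 2 lowest called averaged differences in parents and in bulks. Ta.5458.1.S1_x_at and the longer description of the brightest and most often chosen members were added after values were seen. Members and lists were chosen with earlier results of these data known. The annotation names 1273 probe sets of 771 genes, 770 of them found in the RefSeq table of IWGSC CS RefSeq v2.1. Alternatives were centring, quantile normalization, pseudocount, filter, replicate block, variance trend and arrays left out.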

Additional observations from a re-analysis of the deposited data

Results flagged for a closer look

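For 4 of 57 tested members (7.02%) the averaged tolerant minus susceptible difference was not the same in bulks and parents. This was a test of that difference with limma over all tested probe sets, of which 27.4% passed. The bulk difference exceeded the parental one by 3.21 ± 0.43 for Ta.13730.1.A1_at (adjusted p = 5.81e-06), by 2.40 ± 0.51 for Ta.10338.1.S1_at (adjusted p = 0.00101) and by 1.41 ± 0.39 for Ta.4915.1.A1_at (adjusted p = 0.00868). For Ta.24775.1.S1_at the bulk difference minus the parental one was -2.55 ± 0.55 (adjusted p = 0.00115). Ta.10338.1.S1_at passed the filter on low signals only through its WL711 levels, which enter its value here. In the 24 repeats that each left out 1 array, all 4 values kept their sign and passed the threshold. The cause was not tested.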

How the results depend on the processing

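The membership of the set depended on the processing more than any other result. Of the 150 members, 88 were chosen again after centring on the median of all probe sets, 79 with a pseudocount of 1, 59 with a pseudocount of 64, 56 with the mean in place of the median of 3 arrays, 93 with a limit of 0.25 and 48 with a limit of 0 in the susceptible materials, 57 among probe sets above the filter alone, and 89 without C306 drought arrays 1 and 3. Without replicate 1, 2 or 3 of every group 30, 26 and 35 were chosen again, and between 80 and 136 when 1 of the 24 arrays was left out. Centring on the tested probe sets kept 115, quantile normalization 102, and leaving out WL711 drought array 1 kept 124. The cause was not tested. Leaving out 1 array gave 7 to 10 called members for C306 against WL711, 2 to 4 for the bulks, 5 to 10 for the tolerant bulk against C306 and 4 to 7 for the susceptible bulk against WL711. With the replicate number as a block these counts were 9, 4, 8 and 6, against 9, 4, 9 and 6 without it. Of 872 repeats of the 25 tested values of named members, 833 kept direction and side of the threshold, 39 kept the direction and lost the call, and 0 turned. Of 640 repeats of 20 untested changes, 599 moved by less than 1 SD and 1 fell below 0. An untested change uses only the arrays of its own material, so a repeat without an array of another material could not move it. The count of 599 includes such repeats and overstates how steady these changes were. The widest range over repeats without 1 array was 0.29 to 2.31, for TaAffx.23691.1.S1_at in C306. Low signal limits most members, since 62% lay at or below the filter.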
